A study of Ovis aries with 36 samples.

Results

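The genes described here encode adipokines and secreted lipid carriers: LEP, ADIPOQ and CFD, which are hormones or secreted proteins of adipocytes, RBP4, the plasma carrier of retinol, the apolipoproteins APOE and APOD, and PLA2G7, the phospholipase carried on lipoproteins. A locus was taken as a member when its gene name, split at commas, was one of these 7 symbols, and loci of the same name were summed. All 7 genes had a locus in each of the 3 tissues, out of 21601 gene names shared by the tissues. The rule used gene names, not read counts.

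The libraries came from fetal sheep in late gestation, from Polypay ewes bred to a single sire and fed 1 of 3 isoenergetic diets from mid gestation on. HY was alfalfa haylage, rich in fiber, given ad libitum. CN was corn, rich in starch, and DG was dried distillers grains from corn, which supply fiber, protein and fat, both given in limited amounts. For each diet, RNA of the fetuses was combined by sex into 2 female pools (F1 and F2) and 2 male pools (M1 and M2), and each pool was sequenced from longissimus dorsi muscle, subcutaneous adipose tissue near the shoulder blade and perirenal adipose tissue, giving 36 libraries. By the study's list, pools held 1 to 3 fetuses, and the second female CN pool was 1 fetus only. Some pools of a diet shared a mother, so p-values measure the spread between these pools only.

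Leptin (LEP) is made by adipocytes and signals the size of fat stores to the brain through its receptor LEPR. Adiponectin (ADIPOQ) is an abundant plasma hormone from adipocytes that raises fatty acid oxidation, and adipsin (CFD, complement factor D) is the protease that cleaves factor B in the alternative complement pathway. RBP4 carries retinol in plasma, APOE binds lipoproteins and directs their uptake by cells, APOD is a small lipid-binding lipocalin abundant in Schwann cells and fibroblasts, and PLA2G7 hydrolyses platelet-activating factor and oxidized phospholipids and is made largely by macrophages. In fetal sheep, perirenal fat is the main depot and is largely brown fat, marked by UCP1.

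Library totals ranged from 6705766 to 29625146 counts, with a median of 14406914. Levels are given as counts per 1000000 (CPM) on 1 scale for all 36 libraries, after trimmed-mean (TMM) scaling, and cannot be compared between genes, because gene lengths were not used. The tissue labels were checked against marker genes. UCP1 averaged 629 CPM in perirenal, 61.5 CPM in subcutaneous and 0.0510 CPM in muscle libraries. FABP4, the fatty acid carrier of adipocytes, averaged 2949 CPM in subcutaneous and 2628 CPM in perirenal libraries, but the adipocyte transcription factor CEBPA averaged 1.19 CPM in subcutaneous against 241 CPM in perirenal libraries, and the lipid droplet protein PLIN1 averaged 14.2 against 582 CPM. Loci were merged separately for each tissue, and whether subcutaneous reads of CEBPA and PLIN1 lay at other loci was not tested. The subcutaneous libraries also held skeletal muscle transcripts. The summed level of the muscle markers found there (10 of 12 symbols, of which MYH3 and MYH8 shared a locus in the subcutaneous files) ran from 788 to 127500 CPM in subcutaneous libraries, against 8.98 to 562 CPM in perirenal and 121300 to 173900 CPM in muscle libraries. It exceeded 50000 CPM in 5 subcutaneous pools, CN F2, DG F1, DG F2, DG M2 and HY F2. The Schwann cell markers (6 of 6) exceeded 2000 CPM in subcutaneous pools CN F2, CN M1 and HY F2. Of the kidney markers, UMOD, SLC34A1 and AQP2 were at 0 in every tissue. The summed level of the kidney and adrenal markers found (8 genes) was not 0. It ran from 25.5 to 41.3 CPM in perirenal, 20.2 to 36.2 CPM in subcutaneous and 15.0 to 23.2 CPM in muscle libraries. Because these are bulk samples, fewer cells of a type and less RNA per cell cannot be told apart.

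**Figure D1:**
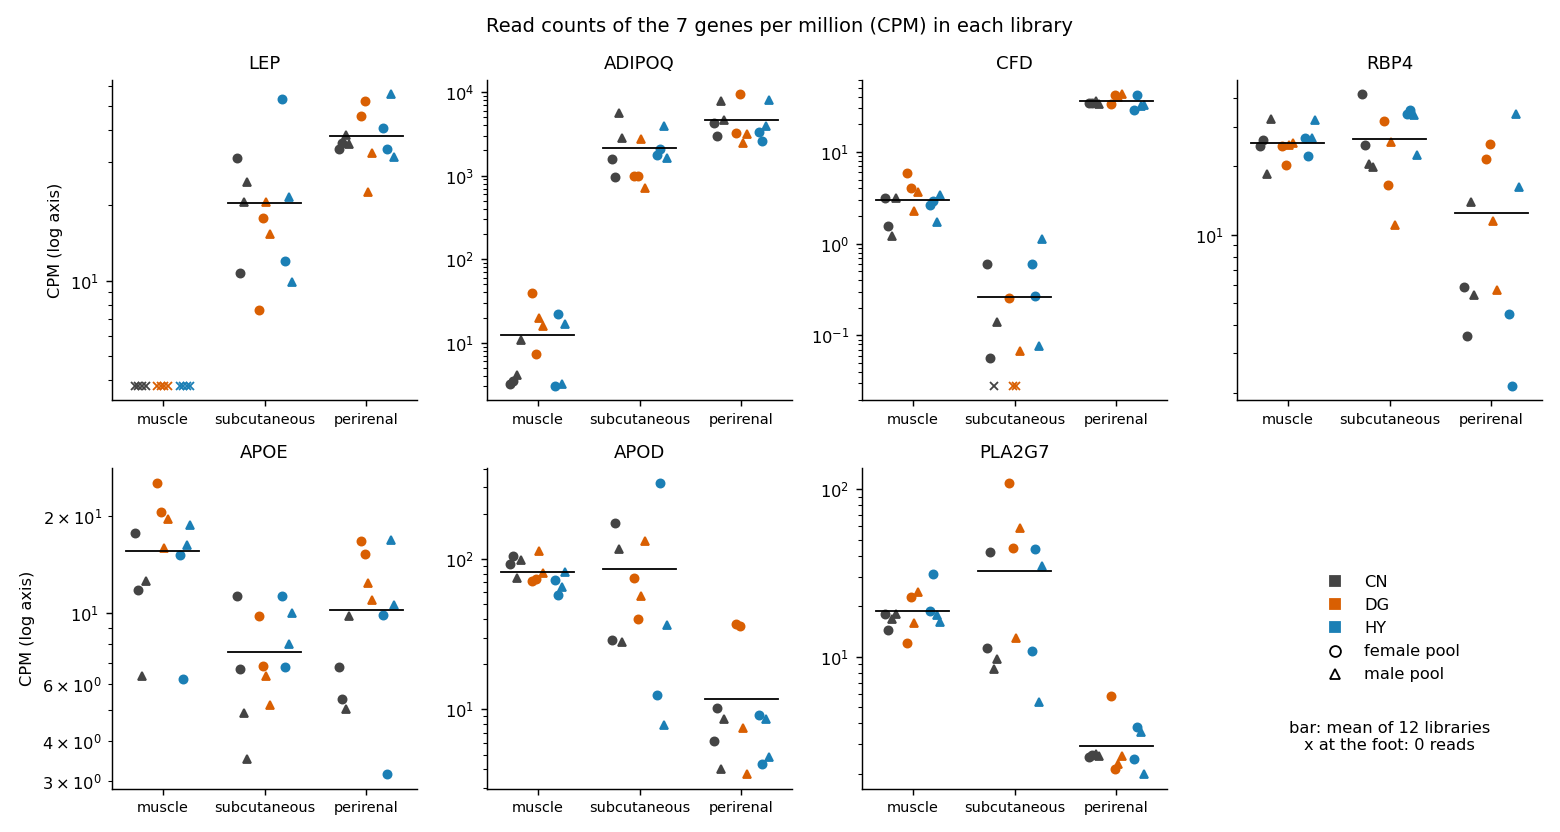
CPM (log axis) of the 7 genes in each of the 36 libraries, by tissue (x axis), maternal diet (colour) and sex of the pool (symbol). The bar is the mean of 12 libraries and a cross at the foot marks 0 reads. LEP had 0 reads in all muscle libraries, the 2 adipose tissues overlapped for every gene except CFD, and APOD and PLA2G7 were widely spread in subcutaneous adipose tissue.

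LEP was detected in both adipose tissues and not in muscle, and was higher in perirenal than in subcutaneous adipose tissue. The LEP locus lay on chromosome 4 of Oar_v3.1, at 92508288-92522182 in the muscle files. In subcutaneous adipose tissue, LEP was at 31.0, 10.8, 20.7 and 24.8 CPM in the CN pools, 7.61, 17.9, 20.7 and 15.4 CPM in the DG pools and 53.3, 12.0, 21.6 and 9.85 CPM in the HY pools. In perirenal adipose tissue, LEP was at 33.7, 35.5, 38.1 and 35.4 CPM in the CN pools, 45.5, 52.4, 22.7 and 32.4 CPM in the DG pools and 40.8, 33.7, 55.8 and 31.2 CPM in the HY pools. The values of each diet are in the order F1, F2, M1, M2, here and below. Perirenal levels stayed between 22.7 and 55.8 CPM, while subcutaneous levels ran from 7.61 to 53.3 CPM. All 12 muscle libraries had 0 LEP reads, and a floor of 3 reads in a library corresponded to 0.113 to 0.245 CPM. Against the highest of these floors, the mean level was at least 83.7-fold higher in subcutaneous and at least 156-fold higher in perirenal adipose tissue. These floors cover counting error only. Loci were merged separately for each tissue, and whether muscle reads of LEP lay at another locus was not tested. The order was therefore perirenal (38.1 ± 9.29 CPM, SD, n = 12), subcutaneous (20.5 ± 12.4 CPM, SD, n = 12), muscle (0 reads). In the joint fit of the 36 libraries with pool as a block, LEP was lower in subcutaneous than in perirenal adipose tissue by edgeR's quasi-likelihood test (log2 fold change -1.06, SE 0.231, Benjamini-Hochberg FDR 0.00118), and perirenal was the higher tissue in 11 of 12 pools. Without the 5 subcutaneous pools over 50000 CPM of muscle markers the difference was -0.50 and not past the threshold (FDR 0.155), and without the 3 pools over 2000 CPM of Schwann cell markers it was -0.84 (FDR 0.0257).

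ADIPOQ was high in both adipose tissues and low in muscle. Its locus lay on chromosome 1, at 198617936-198631249 in the muscle files. The subcutaneous files held a second locus of this name, with the same span as the first and 0 reads in every library. Among the subcutaneous libraries, ADIPOQ was at 1595, 974, 5639 and 2796 CPM in the CN pools, 977, 1001, 2749 and 720 CPM in the DG pools and 1748, 2085, 3950 and 1645 CPM in the HY pools. Among the perirenal libraries, ADIPOQ was at 4278, 3003, 7782 and 4576 CPM in the CN pools, 3226, 9399, 2431 and 3165 CPM in the DG pools and 3333, 2593, 3885 and 8122 CPM in the HY pools. The depots overlapped, with the lowest subcutaneous value (720 CPM) below every perirenal one and the highest (5639 CPM, CN M1) above most. In muscle, ADIPOQ was at 3.18, 3.52, 4.08 and 10.9 CPM in the CN pools, 39.2, 7.34, 20.1 and 16.0 CPM in the DG pools and 3.08, 22.03, 3.24 and 16.8 CPM in the HY pools. Every muscle library had ADIPOQ reads, at levels far under the lowest adipose library, and they differed 12.8-fold between the lowest and highest pools. The levels averaged 4649 ± 2393 CPM in perirenal, 2157 ± 1447 CPM in subcutaneous and 12.45 ± 11.01 CPM in muscle libraries (SD, n = 12 each). All neighbours in this order differed. The log2 fold change was -1.23 (SE 0.371, FDR 0.00611) for subcutaneous vs. perirenal, with perirenal higher in 10 of 12 pools. It was -7.60 (SE 0.479, FDR 7.023e-12) for muscle vs. subcutaneous and -8.83 (SE 0.503, FDR 8.537e-13) for muscle vs. perirenal. Without the 5 muscle-marker-rich pools the difference between the adipose tissues was -0.57 and not past the threshold (FDR 0.375). In muscle, the summed level of 6 of 8 adipocyte markers was highest in DG F1 (49.2 CPM), where ADIPOQ was highest (39.2 CPM). It was between 12.6 and 15.1 CPM in the CN pools F1, F2 and M1, where ADIPOQ was at most 4.08 CPM, and 19.7 and 17.2 CPM in HY F1 and HY M1, where ADIPOQ was 3.08 and 3.24 CPM. The part of these markers in the muscle values was not tested.

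The result for CFD depended on which locus was read. In the subcutaneous and muscle files, CFD and its neighbour MED16, a subunit of the Mediator complex, each had a locus of their own with the same recorded span, in muscle chromosome 5 at 40805910-40827032. In the perirenal files, 1 locus bore CFD alone and another bore both names, and the rule for members added both. By that rule, in perirenal adipose tissue CFD was at 34.5, 34.5, 35.7 and 32.9 CPM in the CN pools, 33.7, 41.2, 39.9 and 42.4 CPM in the DG pools and 28.7, 42.2, 31.5 and 32.2 CPM in the HY pools. Subcutaneously, CFD was at 0.600, 0.0569, 0 and 0.141 CPM in the CN pools, 0.254, 0, 0 and 0.0672 CPM in the DG pools and 0.605, 0.267, 0.0769 and 1.11 CPM in the HY pools. In muscle, CFD was at 3.11, 1.56, 1.22 and 3.15 CPM in the CN pools, 5.95, 4.03, 2.25 and 3.66 CPM in the DG pools and 2.61, 2.89, 1.74 and 3.37 CPM in the HY pools. These sums averaged 35.8 ± 4.56 CPM in perirenal, 2.96 ± 1.27 CPM in muscle and 0.265 ± 0.342 CPM in subcutaneous libraries (SD, n = 12 each). The tissues did not overlap, and perirenal was the highest (log2 fold change for subcutaneous vs. perirenal -7.37, SE 0.307, FDR 8.358e-16, and for muscle vs. perirenal -3.71, SE 0.224, FDR 4.879e-13). From the locus that bore CFD alone, however, CFD was at 0.421, 0.141, 0.100 and 0.772 CPM in the CN pools, 0.914, 0.227, 0.911 and 1.13 CPM in the DG pools and 0.326, 0.0830, 0.798 and 0.314 CPM in the HY pools in perirenal adipose tissue, from 1 to 17 reads a library. On this locus muscle was the highest tissue, 5.79-fold over perirenal in the means (log2 fold change 2.58, FDR 2.306e-07), and subcutaneous stayed below perirenal (-1.21, FDR 0.0206). Muscle libraries held 15 to 121 reads there and subcutaneous libraries 0 to 16. Muscle was above subcutaneous adipose tissue by the rule for members, on the locus of its own and with MED16 added (3.67, SE 0.326, FDR 8.055e-10, by the rule for members). The locus that bore both names held 305 to 609 perirenal reads. It averaged 35.3 CPM, and the locus named MED16 alone averaged 21.6 CPM in muscle and 16.7 CPM in subcutaneous libraries. With CFD and MED16 summed in all tissues, subcutaneous and muscle differed from perirenal by -1.11 and -0.56 on the log2 scale, both past the threshold. At the perirenal locus that bore both names, reads of CFD and of MED16 cannot be told apart. How much of the perirenal sum was CFD was not tested. In the other tissues they were counted at separate loci with the same recorded span, and strand use is not given.

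**Figure D2:**
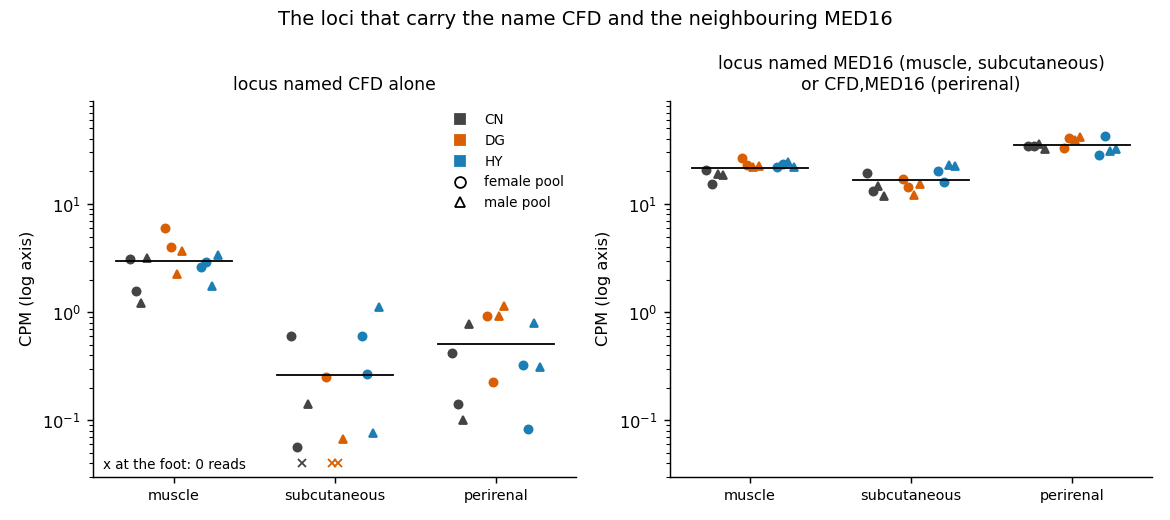
CPM (log axis) per library by tissue for the locus named CFD alone (left) and for the locus named MED16, or CFD and MED16 together in perirenal adipose tissue (right). Points are pools, bars are means of 12 and crosses mark 0 reads. On the left, muscle (mean 2.96 CPM) lies above perirenal (0.512 CPM) and subcutaneous adipose tissue (0.265 CPM), and on the right perirenal is the highest (35.3 CPM).

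RBP4 was lower in perirenal adipose tissue than in the other tissues, whose levels were alike in the mean. The locus had the same span in all files, on chromosome 22 at 14598700-14604325. Perirenally, RBP4 was at 5.89, 3.59, 13.9 and 5.40 CPM in the CN pools, 21.6, 25.1, 11.5 and 5.67 CPM in the DG pools and 4.48, 2.16, 34.2 and 16.2 CPM in the HY pools. Subcutaneously, RBP4 was at 41.6, 24.9, 20.5 and 19.9 CPM in the CN pools, 31.7, 16.5, 25.7 and 11.1 CPM in the DG pools and 34.2, 35.4, 33.6 and 22.6 CPM in the HY pools. In muscle, RBP4 was at 24.6, 26.2, 18.6 and 32.4 CPM in the CN pools, 24.5, 20.3, 24.9 and 25.4 CPM in the DG pools and 26.8, 22.2, 26.7 and 32.2 CPM in the HY pools. Muscle was narrow, within 18.6 to 32.4 CPM, while perirenal pools differed 15.8-fold, and HY M1 reached 34.2 CPM, above every muscle library. The means were 26.5 ± 8.95 CPM in subcutaneous, 25.4 ± 4.09 CPM in muscle and 12.5 ± 10.1 CPM in perirenal libraries (SD, n = 12 each). RBP4 was higher in subcutaneous than in perirenal adipose tissue (log2 fold change 1.32, SE 0.319, FDR 0.00109) and higher in muscle than in perirenal (1.32, SE 0.317, FDR 0.000732), each in 10 of 12 pools. Muscle and subcutaneous adipose tissue differed by -0.00064 on the log2 scale (SE 0.312, FDR 0.9998). A difference of about that error, or somewhat beyond it, could also go uncalled. In perirenal adipose tissue, the 6 pools with the highest RBP4 were also the 6 with the highest summed level of fibroblast and adipose progenitor markers (8 of 8 genes), from 3185 to 6797 CPM against 1792 to 2854 CPM in the others. The corresponding ranges were 4028 to 10310 CPM in subcutaneous and 6092 to 10040 CPM in muscle libraries. The part of these markers in the RBP4 values was not tested.

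APOE was highest in muscle. Its locus lay on chromosome 14, at 51706438-51711340 in the muscle files. In muscle, APOE was at 17.7, 11.8, 6.36 and 12.6 CPM in the CN pools, 25.4, 20.6, 15.9 and 19.6 CPM in the DG pools and 15.1, 6.26, 16.2 and 18.8 CPM in the HY pools. Among the subcutaneous libraries, APOE was at 11.3, 6.71, 4.89 and 3.52 CPM in the CN pools, 9.76, 6.87, 6.36 and 5.17 CPM in the DG pools and 11.3, 6.80, 7.996 and 9.99 CPM in the HY pools. Among the perirenal libraries, APOE was at 6.82, 5.42, 5.02 and 9.80 CPM in the CN pools, 16.8, 15.3, 12.4 and 10.96 CPM in the DG pools and 9.85, 3.15, 16.9 and 10.6 CPM in the HY pools. Ranges overlapped between all tissues, and subcutaneous libraries reached no more than 11.3 CPM. The means were 15.5 ± 5.63 CPM in muscle, 10.2 ± 4.58 CPM in perirenal and 7.55 ± 2.54 CPM in subcutaneous libraries (SD, n = 12 each). APOE was higher in muscle than in perirenal (log2 fold change 0.62, SE 0.154, FDR 0.000791) and subcutaneous adipose tissue (0.97, SE 0.156, FDR 7.288e-06), in 11 of 12 pools each. With library totals only in place of TMM, which moved the median over all genes to -0.33 for muscle vs. perirenal, the first of these was 0.30 (FDR 0.0592). The adipose tissues differed by -0.35 (SE 0.159, FDR 0.0548). That comparison passed the threshold with library totals only and without any 1 of the subcutaneous pools CN F1 and HY F2 or the perirenal pools CN F1 and HY F2, where the FDR lay between 0.0126 and 0.0435. Macrophages are a known source of APOE. Of 10 macrophage markers, MSR1 (2.54) and C1QC (1.80) were higher in muscle than in perirenal adipose tissue and AIF1 (-1.78) and CD68 (-2.63) lower, the last at a locus that also bore EIF4A1, and the others did not pass. The part of these markers in the APOE values was not tested.

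APOD was lower in perirenal adipose tissue than in both other tissues, and was widely spread between subcutaneous pools. Its locus lay on chromosome 1, at 190321869-190335681 in the muscle files. For the subcutaneous pools, APOD was at 28.9, 175, 116 and 28.0 CPM in the CN pools, 74.7, 39.9, 56.6 and 132 CPM in the DG pools and 12.5, 321, 7.92 and 36.7 CPM in the HY pools. In muscle, APOD was at 92.9, 105, 74.6 and 98.6 CPM in the CN pools, 71.0, 73.8, 114 and 81.0 CPM in the DG pools and 73.1, 57.3, 65.6 and 81.9 CPM in the HY pools. For the perirenal pools, APOD was at 6.14, 10.3, 4.01 and 8.64 CPM in the CN pools, 37.2, 36.1, 7.56 and 3.71 CPM in the DG pools and 9.12, 4.32, 8.64 and 4.82 CPM in the HY pools. Muscle stayed within 57.3 to 114 CPM, above every perirenal library, while the subcutaneous pools spanned 40.5-fold and the perirenal pools DG F1 and DG F2 stood apart from the remaining perirenal values of 3.71 to 10.3 CPM. APOD averaged 85.7 ± 90.3 CPM in subcutaneous, 82.3 ± 16.8 CPM in muscle and 11.7 ± 11.9 CPM in perirenal libraries (SD, n = 12 each). The log2 fold change was 2.66 (SE 0.551, FDR 0.000281) for subcutaneous vs. perirenal, higher in 11 of 12 pools, and 3.07 (SE 0.522, FDR 1.972e-05) for muscle vs. perirenal, higher in 12 of 12. Muscle and subcutaneous adipose tissue differed by 0.41 (SE 0.511, FDR 0.480). Without subcutaneous pool HY F2 alone, this became 0.90 (FDR 0.0452).

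The Schwann cell markers were high in some of the pools with high APOD in each tissue. Their sum was highest in subcutaneous pool HY F2 (7692 CPM), where APOD was highest (321 CPM), and lowest in HY M1 (148 CPM), where APOD was lowest (7.92 CPM). In perirenal adipose tissue it was 257 CPM in DG F1 and 231 CPM in DG F2, against 68.9 to 122 CPM in the other pools, and in muscle it was highest in DG M1 (2552 CPM), as was APOD (114 CPM). Not all pools followed the markers. Subcutaneous DG M2 had 132 CPM of APOD, above CN M1 (116 CPM), though the marker sums of the subcutaneous DG pools reached at most 846 CPM. The part of these markers in the APOD values was not tested. Without the 3 subcutaneous pools over 2000 CPM of these markers, subcutaneous stayed above perirenal adipose tissue (1.70, FDR 0.00162), and APOD was higher in muscle than in subcutaneous adipose tissue (1.37, FDR 0.00562).

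PLA2G7 was low in perirenal adipose tissue, higher in muscle, and higher but widely spread in subcutaneous adipose tissue. Its locus lay on chromosome 20, at 19978967-20013377 in the muscle files. For the perirenal pools, PLA2G7 was at 2.52, 2.60, 2.61 and 2.55 CPM in the CN pools, 5.86, 2.15, 2.28 and 2.57 CPM in the DG pools and 2.44, 3.82, 3.56 and 1.99 CPM in the HY pools. For the subcutaneous pools, PLA2G7 was at 11.2, 42.3, 8.43 and 9.72 CPM in the CN pools, 109, 44.4, 13.0 and 59.0 CPM in the DG pools and 10.8, 43.8, 5.38 and 34.5 CPM in the HY pools. In muscle, PLA2G7 was at 17.9, 14.4, 16.8 and 17.9 CPM in the CN pools, 12.1, 22.7, 15.9 and 24.2 CPM in the DG pools and 18.9, 31.4, 17.8 and 16.2 CPM in the HY pools. All muscle libraries were above all perirenal ones, and 6 subcutaneous pools were above the highest muscle library (31.4 CPM). PLA2G7 averaged 32.6 ± 30.2 CPM in subcutaneous, 18.8 ± 5.12 CPM in muscle and 2.91 ± 1.07 CPM in perirenal libraries (SD, n = 12 each). It was higher than in perirenal adipose tissue both in subcutaneous (log2 fold change 3.097, SE 0.324, FDR 3.495e-08) and in muscle (2.75, SE 0.316, FDR 6.327e-08), in 12 of 12 pools each. Muscle and subcutaneous adipose tissue differed by -0.35 (SE 0.290, FDR 0.285).

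PLA2G7 and skeletal muscle markers were high in the same subcutaneous pools. The 5 pools over 50000 CPM of skeletal muscle markers were the 5 highest for PLA2G7, from 42.3 to 109 CPM, and the other 7 had 5.38 to 34.5 CPM. Without those 5 pools, PLA2G7 was still higher in subcutaneous than in perirenal adipose tissue (2.23, FDR 2.023e-05), and muscle vs. subcutaneous turned to 0.45 (FDR 0.218). The summed macrophage markers (10 genes, CD68 at a locus that also bore EIF4A1) had medians of 312 CPM in subcutaneous, 284 CPM in perirenal and 93.3 CPM in muscle libraries. They were lowest in muscle, and PLA2G7 was lowest in perirenal adipose tissue. The part of the muscle and macrophage markers in the PLA2G7 values was not tested.

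**Figure D3:**
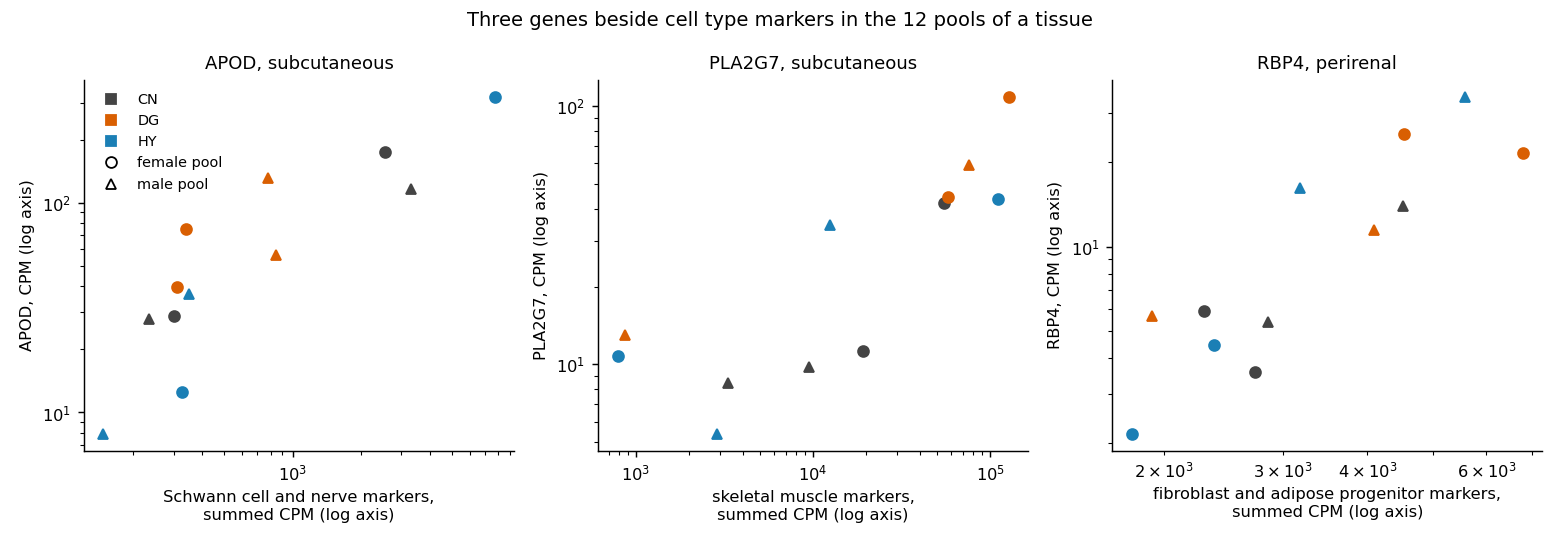
Level of APOD and PLA2G7 in the 12 subcutaneous pools and of RBP4 in the 12 perirenal pools (y axes, CPM) against the summed CPM of marker genes (x axes), on log axes. Each point is a pool, coloured by maternal diet, with circles for female and triangles for male pools. Pools with the highest marker sums have high levels of the gene beside them, for example 7692 and 321 CPM for the Schwann cell markers and APOD in HY F2.

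Over the 7 genes, subcutaneous vs. perirenal adipose tissue called 6 at FDR ≤0.05, with APOD, PLA2G7 and RBP4 higher and ADIPOQ, CFD and LEP lower in subcutaneous. Tissue differences were common among all genes: 67.0% of the 13278 genes tested were called, 32.8% higher and 34.2% lower in subcutaneous. Muscle vs. perirenal called 7 of 7 (background 80.0%, 39.9% higher and 40.1% lower), with APOD, APOE, PLA2G7 and RBP4 higher and ADIPOQ, CFD and LEP lower in muscle. Muscle vs. subcutaneous called 4 of 7 (background 72.2%, 36.5% higher and 35.7% lower), with APOE and CFD higher and ADIPOQ and LEP lower in muscle. Libraries did not overlap for CFD between the adipose tissues (background 14.0%), for LEP, ADIPOQ, CFD, APOD and PLA2G7 between muscle and perirenal (39.9%), and for LEP, ADIPOQ and CFD between muscle and subcutaneous adipose tissue (20.9%). None of these shares was read as particular to the 7 genes, and the directions for CFD hold as given above for its loci.

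**Figure D4:**
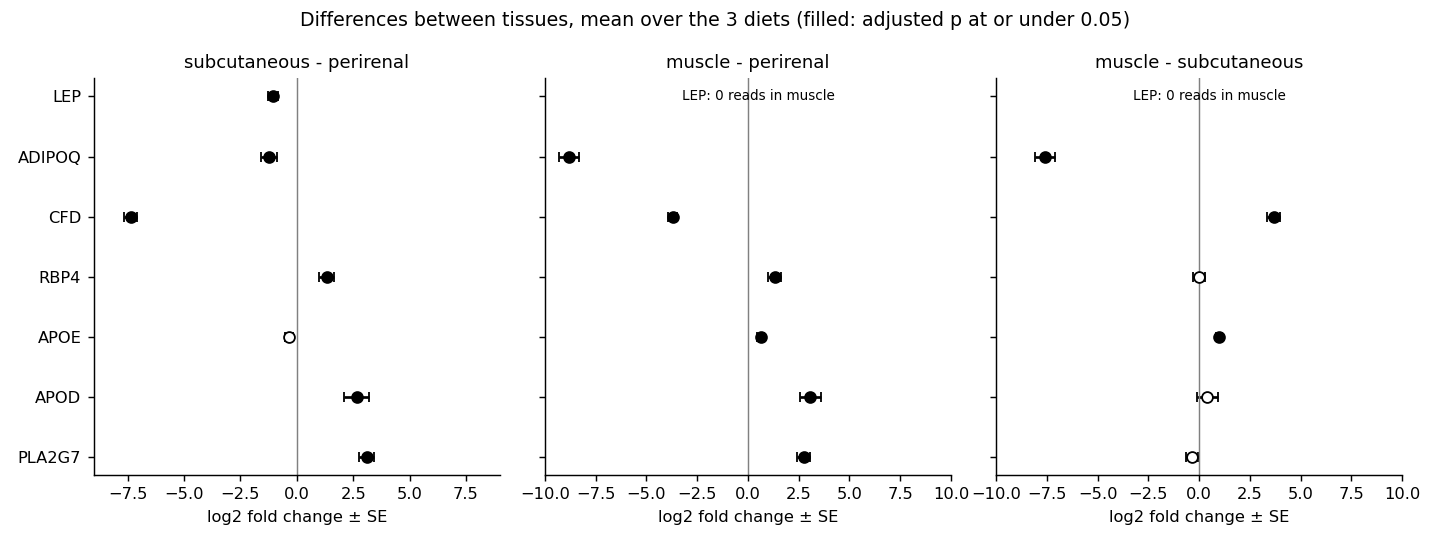
Log2 fold changes (x axis, with SE) of the 7 genes for the 3 tissue comparisons, averaged over the diets, from the fit of 36 libraries with pool as a block. Filled points have an FDR at or under 0.05, and LEP is left out of the muscle comparisons because it had 0 reads there. ADIPOQ has the lowest value in both muscle comparisons (-8.83 and -7.60), and RBP4, APOD and PLA2G7 did not pass between muscle and subcutaneous adipose tissue (-0.00064, 0.41 and -0.35).

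No difference between maternal diets passed FDR ≤0.05 for any of the 7 genes in any tissue. Over 3 diet comparisons per tissue, 57 tests were possible, because LEP in muscle and CFD in subcutaneous adipose tissue had too few reads. None of the 57 was called by edgeR, 7 had an unadjusted p under 0.05 (background 10.9%), and DESeq2 called 0 with 8 under that level. Among all rows tested, edgeR called 1.02% in muscle for DG vs. CN, 2.95% in muscle for HY vs. CN, and 0.0% in each of the other 7 comparisons. DESeq2 called 267 of 17745 rows in subcutaneous and 248 of 17926 in perirenal adipose tissue for DG vs. CN, and 905 and 99 for DG vs. HY. The study, testing with the tool Cuffdiff, had called PLA2G7 at FDR ≤0.05 in subcutaneous adipose tissue for DG vs. CN and DG vs. HY. In perirenal adipose tissue it had called RBP4, APOD and APOE higher in DG than in CN at that threshold. These calls were not reproduced here with edgeR or DESeq2. They came from these same samples, so the directions below are not independent evidence.

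In muscle, the comparison of DG with CN held 3 of the 7 unadjusted values under 0.05, where 16.3% of all rows had one. ADIPOQ was at 7.34 to 39.2 CPM in DG and 3.18 to 10.9 CPM in CN pools (log2 fold change 1.94, SE 0.691, FDR 0.206). APOE had 15.9 to 25.4 CPM in DG against 6.36 to 17.7 CPM in CN (0.75, SE 0.316, FDR 0.265), and CFD 2.25 to 5.95 against 1.22 to 3.15 CPM (0.81, SE 0.351, FDR 0.276). The pools of the diets overlapped for each of these genes. The adipocyte markers moved with ADIPOQ, with sums of 21.0 to 49.2 CPM in DG and 12.6 to 23.1 CPM in CN pools, and their part was not tested. For HY vs. CN, APOD was the gene with an unadjusted p under 0.05 (background 20.3%), at 57.3 to 81.9 CPM in HY and 74.6 to 105 CPM in CN (-0.40, SE 0.167, FDR 0.200). The muscle difference of RBP4 farthest from 0 was -0.19 on the log2 scale, for DG vs. HY (SE 0.166).

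In subcutaneous adipose tissue, PLA2G7 was at 13.0 to 109 CPM in DG, 8.43 to 42.3 CPM in CN and 5.38 to 43.8 CPM in HY pools, overlapping between all diets. The log2 fold change for DG vs. CN was 1.62 (SE 0.807, FDR 0.360). The muscle markers moved the same way, with 3 of 4 DG pools over 50000 CPM and 1 of 4 in CN. A covariate was made from the log2 summed level of the muscle markers, without the locus shared by MYH3 and MYH8. With it the PLA2G7 change was 1.22 (SE 0.368, FDR 0.118). Without the 5 pools over 50000 CPM the change was 0.39 (FDR 0.929), and without the 3 Schwann-marker-rich pools 2.47 (FDR 0.418). ADIPOQ ran at 720 to 2749 CPM in DG and 974 to 5639 CPM in CN pools (-1.04, SE 0.562, FDR 0.385). This value was -0.42 without pool CN M1, -1.65 without DG M1 and -0.28 without the 5 muscle-marker-rich pools (FDR 0.939). LEP differed by -0.54 for DG vs. CN and 0.09 for HY vs. CN, with SE of 0.511 and 0.509. Changes of either sign well beyond that error could also go uncalled with 4 pools. On simulated data for DG vs. CN in this depot, 6 of 100 genes changed 2-fold were recovered.

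In perirenal adipose tissue, APOE was the only 1 of the 7 genes in any tissue whose pools did not overlap between diets. All DG pools (10.96 to 16.8 CPM, mean 13.9) were above all CN pools (5.02 to 9.80 CPM, mean 6.76), which held for 4.19% of all rows in this direction and 6.5% in either. Over all 9 diet comparisons, 6.21% of the rows had pools that did not overlap. The log2 fold change was 1.02 (SE 0.388, FDR 0.384), and it lay between 0.89 and 1.27 when any pool was left out. APOD gave 1.53 for DG vs. CN (SE 0.640, FDR 0.452) and 1.64 for DG vs. HY (SE 0.644, FDR 0.450). Both values rested on the DG pools F1 and F2 (37.2 and 36.1 CPM), since DG M1 and M2 (7.56 and 3.71 CPM) lay within or just below the range of the other diets. The DG pools F1 and F2 also had the highest Schwann cell marker sums of this depot, given above, and their part was not tested. Unadjusted p-values under 0.05 were found for APOD and APOE for DG vs. CN (background 9.85%) and for APOD for DG vs. HY (9.96%). RBP4 was at 5.67 to 25.1 CPM in DG, 3.59 to 13.9 CPM in CN and 2.16 to 34.2 CPM in HY pools (1.16 for DG vs. CN, SE 0.795, FDR 0.702). The median sum of the fibroblast and progenitor markers was 4309 CPM in DG, 2790 CPM in CN and 2780 CPM in HY pools, and their part was not tested. The differences farthest from 0 here were 0.18 for LEP (SE 0.235) and -0.13 for ADIPOQ (SE 0.464), both for HY vs. CN.

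**Figure D5:**
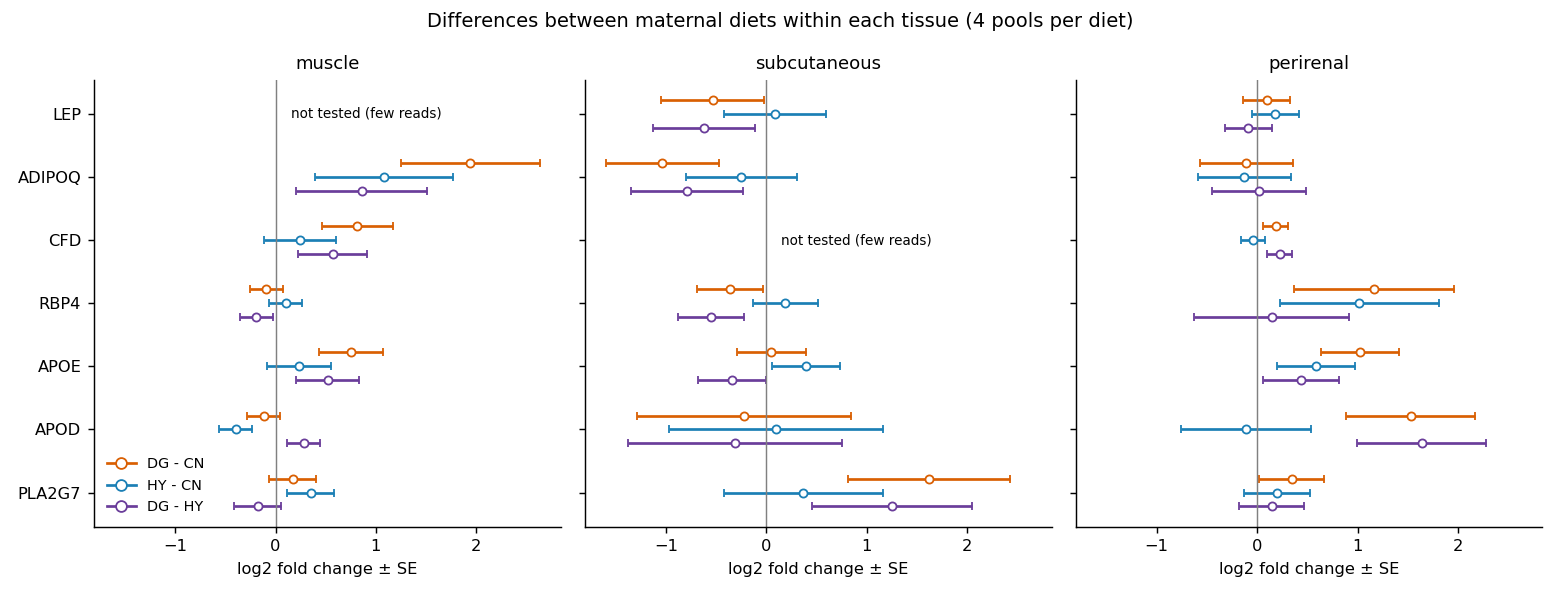
Log2 fold changes (x axis, with SE) of the 7 genes for the 3 diet comparisons in each tissue, from fits of 12 pools with 4 per diet. Open points mark values that did not pass FDR ≤0.05, which is all of them, and untested genes are written out. The values farthest from 0 are ADIPOQ in muscle for DG vs. CN (1.94) and APOD and PLA2G7 in the adipose tissues, all with wide error bars.

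Whether a diet difference itself differed between tissues was tested with interaction terms. None of the 7 genes passed in any of 9 such comparisons by edgeR. For LEP, the comparisons that involve muscle could not pass, because every muscle library had 0 reads. Among all rows, 6.24% passed for DG vs. HY in subcutaneous against perirenal adipose tissue, 0.0151% for DG vs. CN in the same tissues, 0.00753% for DG vs. CN in muscle against subcutaneous adipose tissue, and 0.0% in the others. Of the 63 tests, which include those of LEP with muscle, 9 had an unadjusted p under 0.05 by edgeR (background 9.72%) and 12 by DESeq2. For DG vs. HY in subcutaneous against perirenal adipose tissue, CFD and APOE had an unadjusted p under 0.05 (background 24.7%). By the rule for members, CFD gave -2.65 (SE 0.890, FDR 0.0724) and rested on 0 to 16 subcutaneous reads. Its perirenal side was mostly the locus that also bore MED16, with 305 to 609 reads a library. The perirenal locus of CFD alone held 1 to 17 reads, so this value sets unlike loci against each other. APOE gave -0.997 (SE 0.383, FDR 0.111). CFD passed the threshold under DESeq2 (-2.78, FDR 0.0469), without the Schwann-marker-rich pools (-2.96, FDR 0.0315) and without any 1 of the subcutaneous pools CN F1, DG F1 and HY F2 or the perirenal pool DG F1 (FDR 0.0257 to 0.0490). With any library left out it lay between -4.15 (without subcutaneous DG F1) and -2.03, and it was -6.10 without the muscle-marker-rich pools (FDR 0.273). The sum of CFD and MED16, which is mostly reads of the MED16 locus, gave -0.74 (FDR 0.0420). APOE passed with library totals only (-1.18, FDR 0.0485). ADIPOQ differed for DG vs. CN between muscle and subcutaneous adipose tissue by 2.85 (SE 0.923, FDR 0.514).

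Female and male pools, 6 of each per tissue, gave no call for the 7 genes with diet in the model (background 0.0% in muscle and subcutaneous and 0.0223% in perirenal adipose tissue). Unadjusted p-values under 0.05 were found for 1 of 19 tests by edgeR (background 7.28%), for ADIPOQ in subcutaneous adipose tissue (log2 fold change 1.03 for male vs. female, SE 0.367, FDR 0.297), where 14.8% of all rows had one. By DESeq2 they were found for ADIPOQ, APOE and PLA2G7 there and for APOD in perirenal adipose tissue. Male subcutaneous pools had 720 to 5639 CPM of ADIPOQ and female pools 974 to 2085 CPM, so that the ranges overlapped. Muscle markers exceeded 50000 CPM in 4 female pools and 1 male pool of this depot, and their part was not tested. APOD in perirenal adipose tissue gave -1.01 (FDR 0.9997).

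The receptors of these proteins were all found (10 of 10) and tested. Between the adipose tissues, 3 were higher and 4 lower in subcutaneous, with a list median of -0.07 against -0.02 over all genes, of which 67.0% were called. LEPR, the leptin receptor, averaged 6.46 CPM in muscle and 2.91 CPM in subcutaneous (0 to 8.46 CPM) and had at most 2 reads in any perirenal library, the tissue with the highest LEP. Because loci were merged separately for each tissue, perirenal reads of LEPR could lie at another locus, which was not tested. STRA6, the membrane receptor for RBP4, averaged 17.1 CPM in subcutaneous and 2.81 CPM in perirenal libraries (log2 fold change 2.53, SE 0.288, FDR 8.089e-08), in the same direction as RBP4. Lower in subcutaneous were LRP8 (-2.57), which binds APOE, CDH13 (-1.26), a surface receptor for adiponectin, BSG (-0.74), a receptor described for APOD, and VLDLR (-0.69). Muscle called 5 receptors higher and 4 lower than perirenal (background 80.0%), and 6 higher and 3 lower than subcutaneous adipose tissue (72.2%). These backgrounds apply to the lists below as well, and none of the list counts is read as particular to its list. Among diets, ADIPOR2 (0.73, SE 0.148, FDR 0.0241) and CDH13 (1.02, SE 0.258, FDR 0.0487), receptors for adiponectin, rose in muscle for HY vs. CN.

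Of 31 other adipokines, 23 were found and 18 tested, of which 5 were higher and 8 lower in subcutaneous than in perirenal adipose tissue (median -0.26, background 67.0%). ANGPTL4, an inhibitor of lipoprotein lipase, averaged 212 CPM in perirenal, 57.4 CPM in subcutaneous and 3.58 CPM in muscle libraries (-2.02 for subcutaneous vs. perirenal, SE 0.174, FDR 7.050e-10). RETN (-3.28), NRG4 (-1.30), a factor released by brown fat, and C1QTNF5 (-0.94) were also lower in subcutaneous, and ANGPTL2 (1.04), C1QTNF2 (0.85) and C1QTNF7 (0.68) were higher. Muscle called 6 higher and 9 lower than perirenal, and 5 higher and 7 lower than subcutaneous adipose tissue. In muscle, C1QTNF6 rose for HY vs. CN (0.78, SE 0.189, FDR 0.0466).

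Of 30 other secreted lipid carriers and their partners, 15 were tested in the joint fit, with 4 higher and 5 lower in subcutaneous than in perirenal adipose tissue (median 0.13, background 67.0%). LPL, the enzyme that releases fatty acids from lipoproteins, averaged 1007 CPM in perirenal and 584 CPM in subcutaneous libraries (-0.79, SE 0.272, FDR 0.0141). GPIHBP1, which anchors it to capillaries, was lower in subcutaneous as well (-1.76, SE 0.218, FDR 2.684e-07). APOC2, the activator of LPL, was highest in muscle at 9.30 CPM, and averaged 0.826 CPM in subcutaneous and 0.171 CPM in perirenal libraries. Whether adipose reads of APOC2 lay at another locus was not tested. Muscle called 5 higher and 6 lower than perirenal, and 5 in each direction against subcutaneous adipose tissue.

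Of 25 genes of retinol handling, 18 were tested, and 4 were higher and 5 lower in subcutaneous than in perirenal adipose tissue (median -0.08, background 67.0%). CRABP2 (2.69, SE 0.326, FDR 1.878e-07), which delivers retinoic acid to the nucleus, CYP26B1 (1.84), which degrades it, ALDH1A1 (1.59), which makes it, and its receptor RARB (0.78) were higher in subcutaneous. RDH16 (-3.96, SE 0.349, FDR 4.743e-09), RXRG (-0.80) and RDH10 (-0.80) were lower. Muscle called 6 higher and 8 lower than perirenal, and 4 higher and 6 lower than subcutaneous adipose tissue. RARA, a retinoic acid receptor, rose in muscle for DG vs. CN (0.71, SE 0.135, FDR 0.0273).

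Of 14 complement genes around CFD, 9 were tested, and 3 were higher and 2 lower in subcutaneous than in perirenal adipose tissue (background 67.0%). C5 (5.17, SE 0.709, FDR 2.443e-06), CFI (0.78) and CD55 (0.49) were higher, and CFP (-0.91), which stabilises the alternative pathway convertase, and CD59 (-0.59) lower. C5 had at most 4 reads in any perirenal library, and whether its perirenal reads lay at another locus was not tested. Muscle called 2 higher and 7 lower than perirenal, and 0 higher and 5 lower than subcutaneous adipose tissue. Of 18 phospholipase A2 and platelet-activating factor genes, 11 were tested, with 4 higher and 3 lower in subcutaneous than in perirenal adipose tissue (background 67.0%). PAFAH1B1 (1.70, SE 0.0815, FDR 1.125e-14), a subunit of the intracellular enzyme for the same substrate as PLA2G7, and PLA2G4A (1.49) were higher, and PLA2G6 (-1.90) lower, in subcutaneous. Muscle called 5 in each direction against perirenal, and 4 higher and 5 lower than subcutaneous adipose tissue. LPCAT1, which makes platelet-activating factor precursors, rose in muscle for both DG vs. CN (1.43, SE 0.304, FDR 0.0423) and HY vs. CN (1.27, SE 0.305, FDR 0.0449), which share the CN pools.

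The genes whose pattern was most like each of the 7 were taken by the root mean square difference of centred log2 levels over the 36 libraries, among 11198 named genes. PMP22, a myelin protein and 1 of the Schwann cell markers above, was the closest to APOD (0.53). LUM, 1 of the fibroblast markers above, was the closest to RBP4 (0.64), followed by the matrix genes COL1A2 (0.65) and VCAN (0.65). RNF217 (0.53), CFL2 (0.57), the muscle cofilin, and HOMER1 (0.61) were closest to PLA2G7. ASGR1 (0.59), CYP1B1 (0.71) and CYP2B6 (0.76) were closest to ADIPOQ, and NICN1 (0.56), GFOD2 (0.59) and NUDT19 (0.63) to LEP. The 3 genes closest to LEP had centred means of -6.85 to -6.35 in muscle and 2.59 to 3.76 in the adipose tissues. Their likeness to LEP thus lay mainly in low muscle counts. Whether muscle reads of these genes lay at other loci was not tested. OTUB1 (0.45) was closest to APOE. NT5C (1.02) was closest to CFD as summed by name, followed by MTFP1 (1.11) and CEBPA (1.14), the last with the limit given above for its subcutaneous reads. These likenesses are a description over libraries that share pools.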

How the data were processed

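RNA was sequenced on the Illumina HiSeq 2000, and per the submitters' processing notes the reads were aligned to Oar_v3.1 with TopHat2 2.0.4, assembled with Cufflinks 2.1.1, merged separately for each tissue, and counted, with HTSeq among the tools named. Reads could have up to 2 mismatches and 40 genomic locations. Strand use and HTSeq settings are not given in the sources used here. The authors deposited raw counts of reads at each merged locus in a file for every library, with no normalization.

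Loci of 1 name were summed, which left 31427 (muscle), 31089 (subcutaneous) and 31851 (perirenal) rows. Low counts were filtered with filterByExpr (minimum count 10, minimum total 15), leaving 18157, 17745 and 17926. Diets were compared within a tissue over its 12 pools with edgeR 4.0.16 (TMM, robust quasi-likelihood F test, Benjamini-Hochberg adjustment over all rows tested, FDR ≤0.05), and sexes with diet in the model. Tissues and interactions were tested in 1 fit of 36 libraries, with the 12 pools as a block, on 13278 of 21601 shared names. SEs are the absolute log2 fold change over the square root of F. Alternatives were DESeq2 1.42.0, RLE factors, library totals only, no filter and the compared diets only. Further ones were a muscle marker covariate, the joint fit without its pool block, and each library left out. The diet fits were also run with the replicate label (F1, F2, M1 or M2), which carries sex, as a block. The CFD loci and the marker-rich pools were treated separately after the data were seen. R 4.3.3 and Python 3.11.15 were used.

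Libraries of the same tissue and diet were compared before they were used as replicates, and in all 54 pairs the counts differed beyond sampling noise (chi-square per degree of freedom 11.4 to 339). On simulated data, 52 of 100 genes changed 2-fold and 88 of 100 changed 4-fold were recovered for DG vs. CN in muscle, 6 and 55 in the subcutaneous and 49 and 92 in the perirenal depot, and 82 and 97 for subcutaneous vs. perirenal. Counting error at these depths affects mainly LEP in muscle and CFD. The genes named are the 7 members, the 3 genes most like each, and from each other list the called genes with the largest change, at most 4 per direction, of which a selection is printed. Some genes of these lists are counted but not reported here by name. The members and the lists were chosen with earlier results of these data known. No sequences are printed and no gene lengths were used.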

Additional observations from a re-analysis of the deposited data

Results flagged for a closer look

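Of 60 groups of 4 pools tested for a pool far from the others (Dixon's test at the 95% level), 7 were flagged, and chance alone flags about 1 in 20 groups. For ADIPOQ, the muscle pool CN M2 had 10.9 CPM against 3.18 to 4.08 CPM in the other CN pools. In subcutaneous adipose tissue DG M1 had 2749 CPM of ADIPOQ against 720 to 1001 CPM, and in perirenal adipose tissue DG F2 had 9399 CPM against 2431 to 3226 CPM. The RBP4 level in subcutaneous pool HY M2 was low, at 22.6 CPM against 33.6 to 35.4 CPM. The APOD level in subcutaneous pool HY F2 was 321 CPM against 7.92 to 36.7 CPM, in the pool with the highest Schwann cell marker sum (7692 CPM). PLA2G7 in subcutaneous pool CN F2 was 42.3 CPM against 8.43 to 11.2 CPM, in the CN pool with the most muscle marker transcripts (54900 CPM). PLA2G7 in perirenal pool DG F1 was 5.86 CPM against 2.15 to 2.57 CPM. The part of the markers in these values was not tested.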

How the results depend on the processing

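The tissue calls for the 7 genes numbered 6 to 7 (subcutaneous vs. perirenal), 7 (muscle vs. perirenal) and 4 to 5 (muscle vs. subcutaneous) when any 1 library was left out. With library totals only, higher and lower calls among all genes split 3245 to 5556 for subcutaneous vs. perirenal and 3917 to 6818 for muscle vs. perirenal, in place of 4349 to 4543 and 5302 to 5325, and the medians over all genes moved to -0.19 and -0.33. CFD for muscle vs. perirenal turned from -3.71 to 2.58 when read from its own locus. RBP4 for muscle vs. subcutaneous lay around 0, at 0.0089 with RLE factors, 0.010 with no filter, 0.010 with DESeq2, 0.018 without the muscle-marker-rich pools, 0.092 without the Schwann-marker-rich pools, and -0.14 to 0.15 with any library left out. PLA2G7 for the same tissues turned to 0.45 without the muscle-marker-rich pools, and APOD to -0.064 when the pool block of the joint fit was left out. LEP and ADIPOQ no longer passed for subcutaneous vs. perirenal without the muscle-marker-rich pools, nor APOE for muscle vs. perirenal with library totals only. The causes were not tested.

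No diet or sex call was made for the 7 genes under any alternative, including the replicate block, under which edgeR called 0 of the 7 genes, and 134 (DG vs. CN) and 270 (HY vs. CN) of all rows in muscle in place of 186 and 536, and 281 for DG vs. HY in subcutaneous adipose tissue in place of 0. This block had the levels F1, F2, M1 and M2, so it also carried the sex of the pool. The parts of sex and of pool number in these calls were not tested. Beyond sex, the pool numbers mark no shared animals across diets. Pools of the same label correlated on average at -0.03 (muscle), 0.25 (subcutaneous) and 0.09 (perirenal). DESeq2 called 692 and 1398 rows for these muscle comparisons, and 905 for DG vs. HY in subcutaneous adipose tissue. For the interaction of DG vs. HY in subcutaneous against perirenal, 1 gene passed in place of 0, which was APOE with library totals only and CFD with DESeq2, with CFD and MED16 summed, without the Schwann-marker-rich pools, and with single libraries left out (0 to 1). In muscle against subcutaneous, 1 gene (CFD) passed without the Schwann-marker-rich pools and without subcutaneous pool HY F2 (0 to 1 over all libraries left out). Few reads limited CFD in subcutaneous adipose tissue (0 to 16 reads) and LEP in muscle (0 reads).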
